A study of Rattus with 9 samples.

Results

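The 9 genes described here encode IL-1 family cytokines and their receptors: the ligands Il1a, Il1b, Il33 and Il18, the receptor antagonist Il1rn, the receptors Il1r1, Il1rap and Il1rl1, and the decoy receptor Il1r2. They were chosen by symbol, 9 of the 23836 gene symbols in the count matrices, and each matched 1 feature. Their Ensembl identifiers in the files are ENSRNOG00000004575 for Il1a, ENSRNOG00000004649 for Il1b, ENSRNOG00000016456 for Il33, ENSRNOG00000009848 for Il18, ENSRNOG00000005871 for Il1rn, ENSRNOG00000014504 for Il1r1, ENSRNOG00000001928 for Il1rap, ENSRNOG00000014835 for Il1rl1 and ENSRNOG00000014378 for Il1r2. All 9 were counted in every sample of rat bile duct.

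IL-1α and IL-1β bind the receptor encoded by Il1r1, which signals together with the accessory protein encoded by Il1rap through MyD88 to NF-κB. The antagonist IL-1Ra occupies the same receptor without signalling, and IL-1R2 binds IL-1 but lacks the signalling domain. IL-33 is stored in nuclei of endothelial, stromal and epithelial cells and acts through ST2 (Il1rl1) with the same accessory protein on mast cells, regulatory T cells and type 2 innate lymphoid cells, and in the bile duct it is known to promote growth of cholangiocytes by that route. IL-1β and IL-18 are made as precursors and are cleaved by caspase-1 in inflammasomes.

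Single cells of extrahepatic bile duct were captured with 10x Genomics 3′ chemistry from 9 samples with 20 libraries, and the unit of every level below is CPM, the UMIs of a gene per 1000000 UMIs, both summed over the cells of a sample or of a cell type in a sample. The sham group had 3 samples of 1 library each. The ctrl group had liver transplantation (LT) with ischemic injury, and the treat group had the same LT with ligation of the splenic and gastroduodenal arteries, which raises hepatic arterial flow. Each of these 2 groups had 1 sample at day 1, day 3 and day 7 post-LT, with 3 libraries each except treat day 3, for which libraries 2 and 3 were analysed and library 1 was not analysed here. The study's methods describe its rats in general as male and female Sprague-Dawley rats aged 6 to 8 weeks, and the labels give no sex or age per sample. It is not stated whether 1 rat or several gave the libraries of each sample. Libraries were therefore summed, and p-values measure only the spread between these samples, which may be technical.

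After filters and doublet removal, 139295 cells with 856757802 UMIs remained, from 9550965 UMIs in sham 1 to 195634413 in treat day 1. Biliary epithelium-like cells (BECs) made up 9.07% to 32.9% of the cells of each sample. Neutrophil-like cells were few in sham, with 72, 6 and 8 cells, and numbered 2415 to 3490 per sample in ctrl and 965 to 2770 in treat. Libraries 2 and 3 of ctrl day 3 lost 2472 and 3961 barcodes to the hemoglobin limit and kept 408 and 313 cells. Library 2 of ctrl day 1 and library 2 of ctrl day 7 stood apart in this gene family, with Il1a at 30.9 and 26.8 CPM against 0.888 to 9.46 CPM in the other ctrl libraries, and values without them are given beside results that they move.

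Il1b, the secreted form of IL-1 with the best known role in inflammation, was highest in neutrophil-like cells, with a median of 8946 CPM over the 7 samples with at least 20 such cells. Per sample these cells held 11107 CPM in sham 1, then 7264, 10841 and 8946 CPM in ctrl and 5333, 16005 and 7235 CPM in treat at days 1, 3 and 7. Every one of these values lay above that of cluster 9, an unnamed mixed myeloid cluster led by Lyz2, Slpi, Vcan and Fcnb (median 2029 CPM, higher in 7 of 7 samples, exact p = 0.0156, the smallest that 7 pairs allow). Monocyte-like cells had a median of 1978 CPM and macrophage-like cells one of 983 CPM. In the 7 samples with both, cluster 9 was above monocyte-like cells in 1 (exact p = 0.0469), the reverse of the order of the medians, which are over different samples. Over the neighbouring pairs of cell types of all 9 genes, 177 in all, no exact p passed the Benjamini-Hochberg adjustment (smallest adjusted p = 0.461), so each order of types is a description.

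Il1a, the alarmin form of IL-1 that dying cells can release, had the same leading types at far fewer UMIs, between 10 UMIs in sham 1 and 1088 in ctrl day 7. Neutrophil-like cells had a median of 24.6 CPM, cluster 9 of 19.2, monocyte-like cells of 11.2 and macrophage-like cells of 4.75 CPM. The first 2 did not differ beyond their spread, since neutrophil-like cells were higher in 5 of 7 samples (exact p = 0.156). In the 2 libraries that stood apart, neutrophil-like cells held 166 CPM (ctrl day 1) and 113 CPM (ctrl day 7) of Il1a, against 4.77 to 44.4 CPM in the neutrophil-like cells of the other ctrl libraries.

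**Figure D1:**
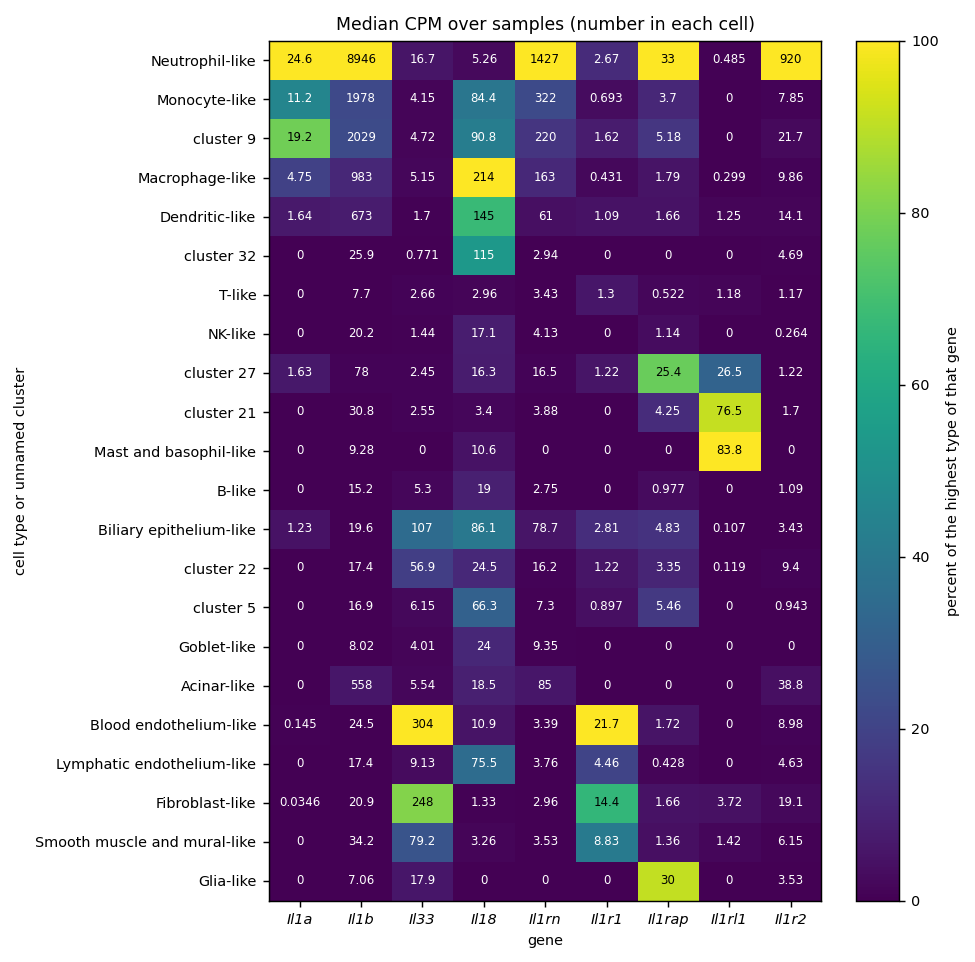
Median level of each of the 9 genes in each cell type or unnamed cluster, over the samples with at least 20 of its cells; the printed value is the median CPM and the colour is the percent of that gene's highest type. Il1b, Il1a, Il1rn, Il1rap and Il1r2 peak in neutrophil-like cells, Il33 and Il1r1 in blood endothelium-like cells, Il18 in macrophage-like cells and Il1rl1 in mast and basophil-like cells and cluster 21.

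The nuclear alarmin Il33 came from non-immune cells. Blood endothelium-like cells had a median of 304 CPM, fibroblast-like cells 248 CPM, BECs 107 CPM and smooth muscle and mural-like cells 79.2 CPM. Endothelium-like cells were above fibroblast-like cells in 6 of 9 samples (exact p = 0.109) and fibroblast-like cells above BECs in 6 of 9 (exact p = 0.199). Over all 9 samples, these neighbours thus did not differ beyond their spread. The first order depended on the group: endothelium-like cells were higher in every sham and treat sample, and fibroblast-like cells in every ctrl sample. Fibroblast-like cells and BECs held more of the Il33 UMIs, with median shares of 45.6% and 34.3% against 13.7% for blood endothelium-like cells. Glia-like cells reached 1398 CPM in treat day 1, the only transplanted sample with 20 of them or more, against 0 and 17.9 CPM in sham 2 and sham 3.

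Il18, an activator of T and NK cells, had its highest level in macrophage-like cells, with a median of 214 CPM. Dendritic-like cells (145 CPM), cluster 32 (115 CPM, led by the plasmacytoid dendritic cell genes Siglech and Irf8), cluster 9 (90.8 CPM) and BECs (86.1 CPM) came after. Macrophage-like cells were above dendritic-like cells in 6 of 8 samples (exact p = 0.0469). In the sham samples BECs still held most of the Il18 UMIs, 68.3%, 61.3% and 68.0%, as they did in ctrl day 1. In ctrl day 3 and ctrl day 7 macrophage-like cells held 49.0% and 51.3% of them.

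The receptor antagonist Il1rn was made by the same cells as Il1b and by BECs. Neutrophil-like cells had a median of 1427 CPM and lay above monocyte-like cells (322 CPM) in 7 of 7 samples (exact p = 0.0156). BECs had a median of 78.7 CPM, and in the sham samples they held 66.7%, 44.0% and 51.1% of all Il1rn UMIs. Within neutrophil-like cells, Il1rn UMIs per 100 Il1b UMIs were 11.8 in sham 1, 21.1, 13.2 and 19.0 in ctrl and 13.5, 10.3 and 16.5 in treat at days 1, 3 and 7. The treat samples were lower than ctrl on each day by this ratio, and the ranges of the groups overlapped. Without the 2 libraries that stood apart, ctrl day 1 had 14.7 and ctrl day 7 had 17.0.

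Among the BEC clusters of the sham samples, Il1rn, Il18 and Il1a lay highest in cluster 6, which was led by Duox2, Duoxa2 and Wfdc21, genes of hydrogen peroxide production and host defence. In sham 2 and sham 3, cluster 6 held 168.9 and 168.2 CPM of Il1rn against 52.5 and 52.0 CPM in cluster 7, the largest BEC cluster of those samples. Il33 had the opposite order there, with 23.4 and 24.6 CPM in cluster 6 and 130.1 and 93.7 CPM in cluster 7. In ctrl, cluster 6 held 158.6, 258.6 and 209.6 CPM of Il33 at days 1, 3 and 7. These are descriptions of clusters of the same cells and were given no test.

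Il1r1, the receptor that carries the IL-1 signal, was low everywhere and highest in structural cells. Blood endothelium-like cells had a median of 21.7 CPM, fibroblast-like cells 14.4 CPM, smooth muscle and mural-like cells 8.83 CPM, lymphatic endothelium-like cells 4.46 CPM and BECs 2.81 CPM. Neutrophil-like cells had a median of 2.67 CPM, with 15.7 CPM and 20.7% of the Il1r1 UMIs in ctrl day 3. Endothelium-like cells were above fibroblast-like cells in 7 of 9 samples (exact p = 0.102). In macrophage-like cells, at most 2.02 CPM of Il1r1 was found in any cluster of any sham or ctrl sample, and 4.06 CPM in the 61 cells of cluster 29 in treat day 1.

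The accessory protein gene Il1rap had a median of 33.0 CPM in neutrophil-like cells. Glia-like cells (30.009 CPM over 3 samples, with 2, 0 and 17 UMIs) and cluster 27 (25.4 CPM, 4 samples), an unnamed cluster with Lag3, came next by the median, and each shared 1 sample with the type ranked just above it, so no test of these neighbours could be made. In the 4 samples with both, Il1rap was 56.8, 33.0, 10.4 and 16.2 CPM in neutrophil-like cells and 23.1, 72.1, 13.3 and 27.8 CPM in cluster 27, which was higher in the 3 treat samples on 4, 2 and 17 UMIs, so the lead of neutrophil-like cells holds only for medians over different samples. BECs held 42.6% and 47.6% of its UMIs in sham 2 and sham 3.

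Il1rl1, which encodes the IL-33 receptor ST2, had its highest levels in rare cells. Mast and basophil-like cells had a median of 83.8 CPM over 4 samples, and cluster 21 had 76.5 CPM over all 9 samples. Cluster 21 was unnamed and led by Gata3, Il2ra and Tnfrsf18, genes shared by type 2 innate lymphoid cells and regulatory T cells. By sample it held 148.4, 80.0 and 62.7 CPM in sham, 76.5, 176.1 and 59.7 CPM in ctrl and 118.6, 66.8 and 46.0 CPM in treat, with overlap of all groups. Cluster 21 held 66.7%, 58.9% and 77.5% of the Il1rl1 UMIs in sham, and 39.5%, 26.95% and 6.16% in ctrl. Fibroblast-like cells, at a median of 3.72 CPM, held 55.1% in ctrl day 3 and 79.1% in treat day 1, and smooth muscle and mural-like cells 51.3% in ctrl day 7. The counts are per gene and do not separate membrane-bound from soluble ST2.

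The decoy receptor Il1r2 was found mainly in neutrophil-like cells. Neutrophil-like cells had a median of 919.8 CPM against 38.8 CPM in acinar-like cells, the next type, and held a median of 63.4% of the UMIs. By sample their level was 975.3 CPM in sham 1, 919.8, 1069 and 747.0 CPM in ctrl and 1115, 547.1 and 702.0 CPM in treat. The acinar-like value of 737.2 CPM in ctrl day 3 came with 6358 CPM of Il1b in the same 41 cells. Fibroblast-like cells, at a median of 19.1 CPM, held 69.4% and 76.4% of the Il1r2 UMIs in sham 2 and sham 3, where neutrophil-like cells were nearly absent.

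The first comparison asked which members differed after LT with ischemic injury, ctrl against sham, over all cells. Il1b was 348.7, 179.9 and 166.6 CPM in sham and 738.5, 1507 and 866.7 CPM in ctrl at days 1, 3 and 7. Il1rn was 93.2, 39.9 and 37.9 CPM in sham and 188.7, 227.4 and 169.2 CPM in ctrl. Il1r2 was 17.0, 9.53 and 9.93 CPM in sham and 84.4, 117.4 and 26.4 CPM in ctrl, and Il1a was 1.05, 1.82 and 1.54 CPM in sham and 9.64, 6.498 and 7.28 CPM in ctrl. For these 4 genes every ctrl sample lay above every sham sample, which gives an exact p of 0.1, the smallest that 3 samples against 3 allow. The share of all genes that separated in this way was not counted. Over all 15181 genes tested, 29.0% had an unadjusted edgeR p under 0.05, so separation alone does not set these genes apart.

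By edgeR's quasi-likelihood test with Benjamini-Hochberg adjustment, 4 of the 9 members rose, in a comparison where 3.57% of the 15181 genes tested were called. Il1a rose by 2.70 on the log2 scale (SE 0.35, adjusted p = 0.0416), Il1b by 2.55 (SE 0.36, adjusted p = 0.0416), Il1rn by 2.18 (SE 0.32, adjusted p = 0.0416) and Il1r2 by 3.03 (SE 0.54, adjusted p = 0.0457). The other 5 did not pass. Their log2 differences were 1.07 for Il1rap (adjusted p = 0.0809), 0.88 for Il18 (0.145), 1.02 for Il33 (0.222), 0.52 for Il1rl1 (0.543) and -0.36 for Il1r1 (0.530). The median log2 difference was 1.07 over the 9 members and -0.01 over all genes. None of the 4 calls was held without sham 2 (2.01 to 2.92, adjusted p from 0.179 to 0.182), without sham 3 (1.99 to 2.93, 0.192 to 0.193), without ctrl day 3 (2.09 to 2.84, 0.133) or without ctrl day 7 (2.27 to 3.44, 0.0665 to 0.0986), and Il1r2 also lost its call without ctrl day 1 (2.93, adjusted p = 0.0532). Over all 17 alternative settings, the call was lost in 7 for Il1a, 6 for Il1b, 6 for Il1rn and 8 for Il1r2. Without sham 1, Il18 was called as well (1.33, adjusted p = 0.0303), among 1878 of 15610 genes.

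The 5 genes that were not called overlapped between sham and ctrl. Il33 was 79.4, 106.0 and 69.2 CPM in sham and 211.2, 142.9 and 53.1 CPM in ctrl, and Il18 was 94.5, 47.0 and 31.0 CPM in sham and 78.5, 83.2 and 78.1 CPM in ctrl. Il1rap was 4.82, 3.33 and 2.91 CPM in sham and 7.199, 6.46 and 4.16 CPM in ctrl. The 2 ligand-binding receptors stayed below 10 CPM in both groups, Il1r1 at 9.42, 6.31 and 6.60 CPM in sham and 3.44, 7.05 and 3.02 CPM in ctrl, and Il1rl1 at 2.83, 3.10 and 2.44 CPM in sham and 1.13, 5.06 and 3.36 CPM in ctrl.

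**Figure D2:**
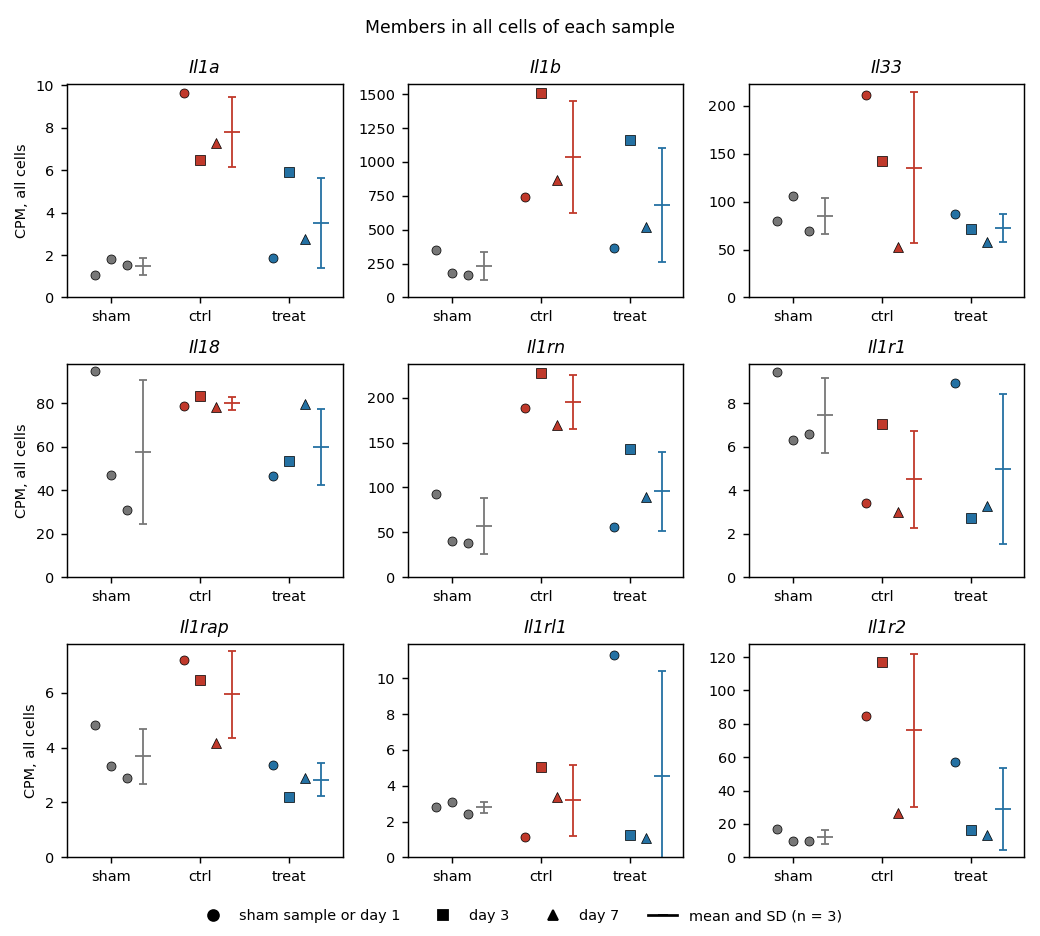
CPM over all cells of each of the 9 samples, 1 panel per gene with its own linear axis; points are samples (ctrl and treat at days 1, 3 and 7), the line is the group mean and the bar is the SD over 3 samples, with bars that would pass below 0 cut at 0. Every ctrl sample is above every sham sample for Il1a, Il1b, Il1rn and Il1r2, and the groups overlap for the other 5 genes. The share of all genes without overlap was not counted.

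The cells that held these UMIs varied between samples. Of the Il1b UMIs, macrophage-like cells held 33.8%, 85.4% and 82.7% in sham and 1.87%, 6.11% and 18.9% in ctrl, and neutrophil-like cells 41.4%, 0.580% and 1.34% in sham and 77.3%, 67.0% and 28.5% in ctrl. Sham 1 thus had a larger neutrophil-like share than ctrl day 7. At ctrl day 7 monocyte-like cells held 35.2%. Neutrophil-like cells made up 3.16%, 0.0649% and 0.0721% of the cells in sham and 27.2%, 31.99% and 7.78% in ctrl. In a sum over all cells, more cells of a type and more RNA per cell cannot be told apart. With neutrophil-like cells left out, a choice made after seeing the data, none of the 9 members and 0 of all 15179 genes were called by edgeR (4071 at an unadjusted p under 0.05): Il1a differed by 1.996 (adjusted p = 0.0624), Il1b by 1.63 (0.0948), Il1rn by 1.34 (0.0736) and Il1r2 by 0.96 (0.280). Without library 2 of ctrl day 1 and of ctrl day 7 none of the members and 0 of 15160 genes were called either (4317 at an unadjusted p under 0.05), at 1.56 for Il1a (adjusted p = 0.146), 2.28 for Il1b (0.0566), 1.76 for Il1rn (0.0732) and 2.81 for Il1r2 (0.0696).

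**Figure D3:**
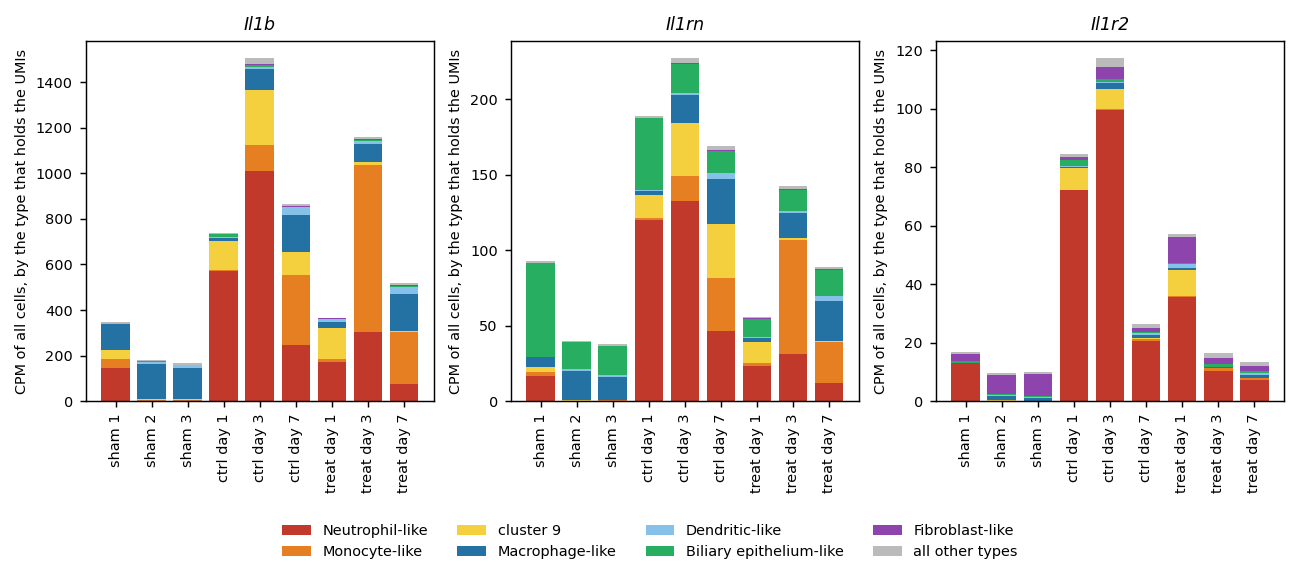
CPM over all cells of Il1b, Il1rn and Il1r2 in each sample, as stacked bars split by the cell type that held the UMIs, with the remaining types pooled. The percents given here are shares of a sample's UMIs and not bar heights. Macrophage-like cells hold most Il1b in sham 2 and sham 3 (85.4% and 82.7%), neutrophil-like cells in ctrl day 1 and day 3 (77.3% and 67.0%), and monocyte-like cells in treat day 3 (63.1%).

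Within macrophage-like cells, the main source of Il1b in sham 2 and sham 3, ctrl lay below sham. Il1b was 1375, 1525 and 2312 CPM in sham and 600.2, 464.3 and 1042 CPM in ctrl, and Il1a was 3.66, 15.3 and 22.2 CPM in sham and 2.59, 2.39 and 4.09 CPM in ctrl. The groups did not overlap for Il1b, and for Il1a ctrl day 7 lay above sham 1. Il18 went the other way, with 147.7, 109.1 and 86.4 CPM in sham and 217.3, 205.5 and 255.2 CPM in ctrl. No gene of the 9475 tested in these cells was called (0%, with 2665 at an unadjusted p under 0.05), so none of the 7 members tested was called: the log2 differences were -1.16 for Il1b (adjusted p = 0.119), -2.12 for Il1a (0.0773) and 1.13 for Il18 (0.0675). By DESeq2, Il1a (-2.08, adjusted p = 0.0150) and Il18 (1.15, adjusted p = 0.00426) were called, and so they were by edgeR without sham 1 (-2.39, adjusted p = 0.0163, and 1.33, adjusted p = 0.020). In these settings 922 of 9475 and 1981 of 10041 genes were called.

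Different clusters made up most of the macrophage-like cells in the 2 groups. Cluster 29 held 73.6% and 70.6% of them in sham 2 and sham 3 and at most 6.44% in ctrl, where cluster 16 held 26.1%, 72.6% and 76.2%. Within cluster 16 alone, Il1b was 2548, 3281 and 3908 CPM in sham and 896.3, 455.1 and 1117 CPM in ctrl. In cluster 4, which held 78.7% of the macrophage-like cells of sham 1 and 72.7% of those of ctrl day 1, Il1b was 66.1, 338.5 and 103.2 CPM in sham and 133.3, 178.7 and 87.1 CPM in ctrl, with overlap.

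In blood endothelium-like cells, which had the highest median levels of Il33 and Il1r1 but not beyond the spread against fibroblast-like cells, 1 of 5 members tested was called, Il1b, against 1.29% of all genes tested there. Il33 was 211.4, 335.3 and 351.2 CPM in sham and 303.2, 213.3 and 275.0 CPM in ctrl, a log2 difference of -0.13 (SE 0.29, adjusted p = 0.833). Il1r1 was 29.8, 21.8 and 30.5 CPM in sham and 5.74, 20.1 and 22.9 CPM in ctrl, a difference of -0.72 (SE 0.41, adjusted p = 0.383). The groups overlapped for both genes.

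Fibroblast-like cells, the matrix-producing cells of the duct wall, had 3 of 8 members tested called, against 1.66% of all genes tested there. Il33 was 91.8, 131.7 and 61.7 CPM in sham and 312.7, 425.4 and 354.6 CPM in ctrl, with no overlap, and rose by 2.14 on the log2 scale (SE 0.32, adjusted p = 0.0314). Il1rl1 was 0, 1.59 and 0.575 CPM in sham and 5.34, 17.0 and 14.1 CPM in ctrl, and rose by 3.695 (SE 0.60, adjusted p = 0.0364). Il1b rose as well and is described with the other types below. Il1r1, at 17.8, 7.31 and 6.04 CPM in sham and 14.4, 20.6 and 16.0 CPM in ctrl, overlapped between the groups and did not pass (1.20, adjusted p = 0.171), and neither did Il1r2 (0.33, adjusted p = 0.623).

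Both calls were lost when single samples were left out, and over 16 alternative settings the Il33 call was lost in 6 and the Il1rl1 call in 7. Most other genes lost their calls in these fits too. In the main fit 190 of 11470 genes were called, against 44 of 11859 without sham 1 and 0 of 11669 without sham 2. Without sham 3 it was 0 of 11617, and without ctrl day 3 it was 16 of 11895. Il33 was not called without sham 1 (2.08, adjusted p = 0.0811), sham 2 (2.49, 0.0924), sham 3 (1.89, 0.213), ctrl day 3 (2.09, 0.0934) or the 2 libraries that stood apart (2.14, 0.0508), and Il1rl1 not without sham 1 (3.62, 0.0730), sham 2 (4.61, 0.0981), sham 3 (3.25, 0.255), ctrl day 3 (3.45, 0.0995) or those libraries (3.49, 0.0625). Different clusters also held most of the fibroblast-like cells. Cluster 10, in which Il33 was 0 to 7.71 CPM, held 52.2%, 48.0% and 67.7% of them in sham and at most 2.46% in ctrl. Cluster 11 held 79.4% and 93.8% of them in ctrl day 3 and day 7, and within it Il33 was 167.0, 181.7 and 135.7 CPM in sham against 461.5 and 364.6 CPM in those 2 samples. Cluster 24 held 96.3% of them in ctrl day 1, with 317.9 CPM of Il33 there, against 182.0 and 206.2 CPM in sham 2 and sham 3, while ctrl day 3 and day 7 had 193.4 and 102.8 CPM in the 81 and 63 cells of this cluster. Il1rl1 within cluster 11 was 0, 1.98 and 1.06 CPM in sham and 19.0 and 14.2 CPM in ctrl day 3 and day 7. Cluster 24 did not show this order, with 17.6 and 6.99 CPM of Il1rl1 in sham 2 and sham 3 and 4.49, 3.47 and 10.3 CPM in ctrl.

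In 1 fit over both cell types, added after seeing the data, the post-LT difference of Il33 in fibroblast-like cells exceeded that in blood endothelium-like cells by 2.32 on the log2 scale (SE 0.39, edgeR adjusted p = 0.0196), in a fit where 1.27% of 11363 genes were called. It was not called without sham 2 (2.52, adjusted p = 0.0924), sham 3 (1.88, 0.0962) or ctrl day 3 (2.05, 0.0509). No other member tested in this fit was called.

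**Figure D4:**
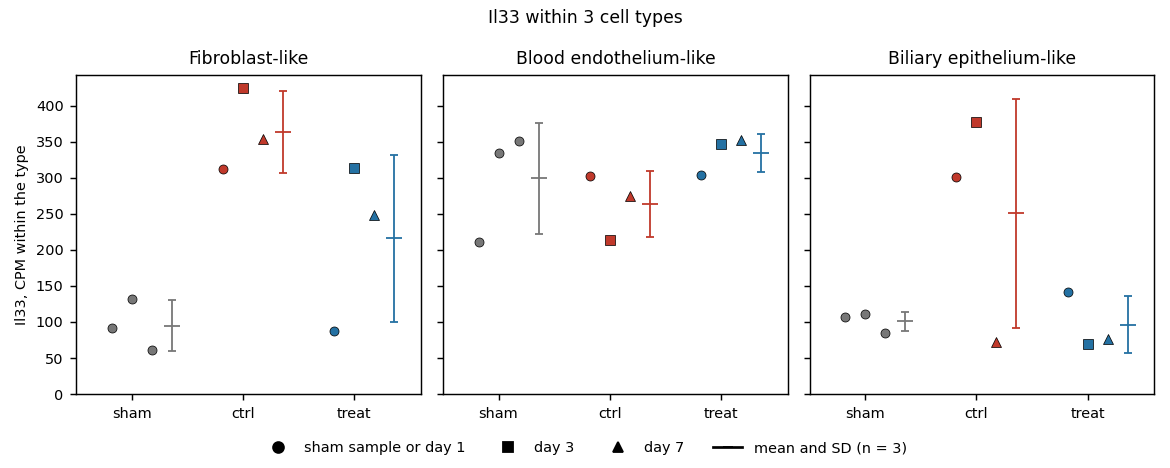
Il33 CPM in fibroblast-like, blood endothelium-like and biliary epithelium-like cells of each sample, with the group mean and SD over 3 samples, on linear axes. In fibroblast-like cells the ctrl samples (312.7 to 425.4 CPM) lie above the sham samples (61.7 to 131.7 CPM), while in blood endothelium-like cells the groups overlap.

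In BECs, 2 of 8 members tested were called, against 1.93% of all genes tested there. The receptor Il1r1 fell from 7.55, 6.66 and 7.86 CPM in sham to 2.08, 2.66 and 2.33 CPM in ctrl, with no overlap (log2 -1.43, SE 0.24, adjusted p = 0.0374). It was not called without sham 2 (-1.47, adjusted p = 0.199), sham 3 (-1.33, 0.202), ctrl day 1 (-1.41, 0.0622) or ctrl day 3 (-1.48, 0.124), and kept this direction in each. Over 16 alternative settings this call was lost in 5. Of all genes, 239 of 12409 were called in the main fit, against 1 of 12951 without sham 2 and 1 of 12475 without sham 3. Without ctrl day 1 it was 297 of 12674, and without ctrl day 3 it was 10 of 13081. Cluster 7 held 70.2% and 77.9% of the BECs in sham 2 and sham 3, and the largest in ctrl were cluster 2 at day 1 (43.3%) and cluster 1 at day 3 (35.7%, with 34.7% in cluster 6) and day 7 (86.2%). Within cluster 6, Il1r1 was 3.79, 6.26 and 5.65 CPM in sham and 2.77, 2.11 and 3.89 CPM in ctrl, which overlapped. In cluster 1 it was 11.7, 6.06 and 20.3 CPM in sham and 1.96, 4.33 and 2.30 CPM in ctrl, and in cluster 7 it was 10.2, 6.90 and 7.88 CPM in sham and 1.41, 0 and 4.69 CPM in ctrl, without overlap in either. Cluster 7 had only 57, 39 and 23 cells in ctrl, so its ctrl values rest on very few UMIs.

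Il33 in BECs was 106.6, 110.5 and 85.2 CPM in sham and 302.1, 378.4 and 72.0 CPM in ctrl. It was high at days 1 and 3 and low at day 7, and the difference did not pass the test (1.58, adjusted p = 0.151), but did by DESeq2 (1.61, adjusted p = 0.0210) and by edgeR without ctrl day 7 (2.04, adjusted p = 0.0102), where 1264 of 12409 and 849 of 12584 genes were called. The day 7 level differed between clusters. Cluster 1, with 86.2% of the BECs of ctrl day 7, held 46.3 CPM of Il33, and cluster 7 held 51.6 CPM in 23 cells. Clusters 6 and 2 held 209.6 and 219.3 CPM there. In sham, cluster 6 held 6.82, 23.4 and 24.6 CPM, and cluster 2 held 125.4 and 118.6 CPM in sham 2 and sham 3. The part of the clusters in the day 7 level was not tested. Il18 (-0.29, adjusted p = 0.629), Il1rn (0.22, 0.732) and Il1rap (0.12, 0.830) in BECs did not pass either.

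Il1b was called in BECs (3.02, SE 0.40, adjusted p = 0.0285), blood endothelium-like cells (3.81, SE 0.44, 0.0139), fibroblast-like cells (2.93, SE 0.28, 0.0134) and smooth muscle and mural-like cells (4.64, SE 0.66, 0.0302), where 0.782% of all genes tested were called and Il1b was 1 of 2 members tested. Its levels there were low, with means of 2.12 to 4.36 CPM in sham and 27.9 to 56.1 CPM in ctrl, against 5333 CPM or more in neutrophil-like cells. Several neutrophil marker genes were higher in ctrl as well. In BECs, 8 of 10 neutrophil marker genes were higher in every ctrl sample than in every sham sample, and their summed level was 2.49 to 9.06 CPM in sham and 417.0 to 437.7 CPM in ctrl. In fibroblast-like cells this held for 7 of 10 (2.96 to 9.95 CPM against 161.1 to 658.7 CPM), in blood endothelium-like cells for 5 of 10 (387.8 to 558.5 CPM against 706.6 to 1235 CPM, with Cxcr2 and Ngp at 0 in every ctrl sample) and in mural-like cells for 4 of 10 (53.4 to 229.5 CPM against 515.2 to 727.1 CPM, with Ngp at 0). The sham sums of the last 2 types are not a level of neutrophil RNA, since most of them came from markers other than S100a8 and S100a9. These 2 genes together were 7.91 to 9.16 CPM in sham and 98.2 to 607.1 CPM in ctrl in blood endothelium-like cells. In mural-like cells they were 7.82 to 8.96 CPM in sham and 361.3 to 455.5 CPM in ctrl. Il1b UMIs per 100 UMIs of S100a8 and S100a9 were also compared with neutrophil-like cells, without a test. At ctrl days 1, 3 and 7 the 4 types had 3.27 to 9.65, 10.6 to 31.7 and 4.65 to 7.51. Neutrophil-like cells had 3.89, 7.64 and 4.05, and only fibroblast-like cells of ctrl day 1 were lower. At treat day 3 the 4 types had 39.97 to 154.6, against 19.0 in neutrophil-like cells. Free RNA estimated from empty barcodes would give 21.5% to 42.2% of the Il1b UMIs of the ctrl samples in BECs, 26.3% to 43.0% in blood endothelium-like cells, 21.2% to 32.8% in fibroblast-like cells and 0% to 30.4% in mural-like cells. The estimate is a low one, since the share of free RNA was the lowest that any marker list of another type gave. It was 0% in mural-like cells of ctrl day 3, which held 423.6 CPM of S100a8 and S100a9. With the empty-barcode profile subtracted at this low share, Il1b was called in each of these types (3.56 to 6.33, adjusted p from 0.0286 to 0.0439). The sham samples held only 5, 1 and 5 Il1b UMIs in blood endothelium-like cells and 2, 1 and 1 in mural-like cells. Estimated free RNA came to 102%, 484% and 0% of these UMIs in endothelium-like cells and 34.8%, 172% and 131% in mural-like cells. Where it came to all of the UMIs or more, subtraction left a count of 0, so these differences rest in part on a floor. A subtraction at a low share cannot decide how much of the Il1b was free RNA. T-like cells held 6.18, 0 and 7.33 CPM of Il1b in sham, on 2, 0 and 1 UMIs. In ctrl they held 1.18, 31.3 and 17.1 CPM, on 1, 120 and 452 UMIs. The part of neutrophil RNA beyond this estimate was not tested.

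Of the alternative settings, 6 of 16 ended the Il1b call in BECs, 3 of 16 in blood endothelium-like, 5 of 16 in fibroblast-like and 6 of 15 in mural-like cells. With doublets kept, the Il1b calls were lost in blood endothelium-like cells (1.18, adjusted p = 0.367), fibroblast-like cells (1.21, 0.0749) and mural-like cells (2.26, 0.0782). Without sham 3 they were lost in all 4 types (2.71 to 4.36, adjusted p from 0.0667 to 0.155), and without sham 2 in BECs (2.97, 0.169), fibroblast-like cells (3.15, 0.0837) and mural-like cells (4.46, 0.155). Without ctrl day 3 they were lost in BECs (2.58, 0.0603) and blood endothelium-like cells (3.87, 0.0601), without ctrl day 1 in mural-like cells (4.85, 0.0631), and without the 2 libraries that stood apart in BECs (2.78, 0.0553) and fibroblast-like cells (2.55, 0.0570). In mural-like cells Il1b did not pass the count filter without these libraries, and 0 of 6180 genes were called. Its level there was 125.3 CPM in library 2 of ctrl day 1, against 23.4 and 19.8 CPM in libraries 1 and 3, and 59.4 CPM in library 2 of ctrl day 7, against 2.36 and 10.4 CPM.

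**Figure D5:**
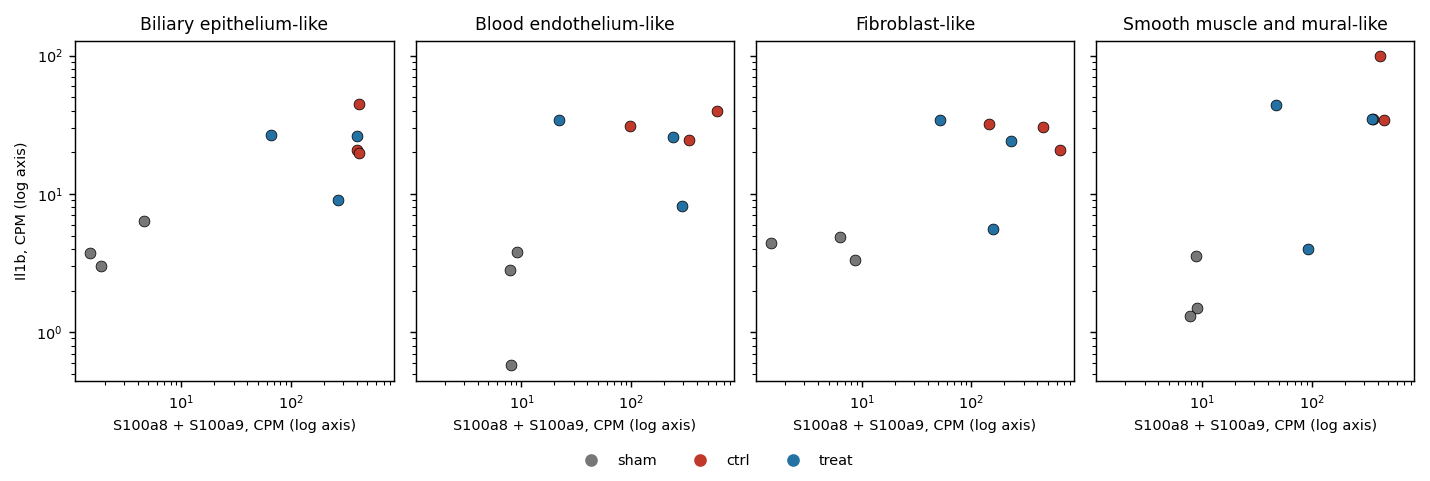
Il1b CPM against the summed CPM of the neutrophil genes S100a8 and S100a9 in biliary epithelium-like, blood endothelium-like, fibroblast-like and mural-like cells, both axes logarithmic, 1 point per sample coloured by group. Sham samples lie low on both axes, with at most 9.16 CPM of S100a8 and S100a9, and ctrl samples high on both, with at least 98.2 CPM. Treat day 3 held 26.6 to 43.9 CPM of Il1b in these types with at most 66.4 CPM of S100a8 and S100a9, less than any ctrl sample.

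In cluster 21, Il1rl1 differed by 0.20 (SE 0.44, adjusted p = 0.814), and none of the 2 members tested there was called, against 1.17% of all genes tested. In cluster 5, an unnamed cluster with 6 of 8 tuft cell markers, none of 3 members tested was called, against 0.155% of all genes tested, and Il1b was the nearest to the threshold at 2.81 (adjusted p = 0.120).

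The second comparison asked which members differed when hepatic arterial flow was raised, treat against ctrl within days. The treat samples had 367.0, 1161 and 516.8 CPM of Il1b, 55.6, 142.5 and 89.2 CPM of Il1rn, 57.1, 16.4 and 13.3 CPM of Il1r2, 1.87, 5.92 and 2.76 CPM of Il1a and 3.38, 2.19 and 2.90 CPM of Il1rap at days 1, 3 and 7. For these 5 genes treat lay below ctrl on each of the 3 days, which gives an exact paired p of 0.25, the smallest that 3 pairs allow. The share of all genes below ctrl on each day was not counted, so the count of 5 is a description. No member was called, and neither was any of the 15816 genes tested (0% by edgeR, 712 at an unadjusted p under 0.05, 122 called by DESeq2).

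The log2 differences of treat against ctrl were -1.52 for Il1r2, -1.39 for Il1a, -1.19 for Il1rn, -1.13 for Il1rap, -0.79 for Il33, -0.78 for Il1b and -0.53 for Il18, each at an unadjusted p under 0.05 and an adjusted p of 0.907 by edgeR. Il1rap was called by DESeq2 (-1.12, adjusted p = 0.0351). The 2 receptor genes Il1r1 (-0.03) and Il1rl1 (-0.52) had an unadjusted p above 0.05, and for both the sign differed between days. Without the 2 libraries that stood apart, both of them ctrl, the difference was 0.01 for Il1a, -0.38 for Il1b, -0.64 for Il1rn, -0.52 for Il1rap and -1.07 for Il1r2. Without neutrophil-like cells, whose share was 12.3%, 7.54% and 3.74% of cells in treat against 27.2%, 31.99% and 7.78% in ctrl, the differences were 0.05 for Il1b, -0.35 for Il1r2, -0.44 for Il1rap, -0.63 for Il1rn and -0.86 for Il1a. Il1r2 was then 13.2, 19.6 and 5.95 CPM in ctrl and 22.01, 6.10 and 6.04 CPM in treat, below ctrl at day 3 alone.

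Il33 over all cells was 211.2, 142.9 and 53.1 CPM in ctrl and 87.3, 71.5 and 58.3 CPM in treat, lower in treat at days 1 and 3 and slightly higher at day 7. Within fibroblast-like cells it was 87.5, 313.4 and 248.2 CPM in treat, below ctrl on each day (-0.93, adjusted p = 0.330, in cells where 0% of genes were called), and cluster 24 held 98.2% of these cells in treat day 1, with 86.5 CPM of Il33. In BECs it was 142.2, 69.7 and 77.0 CPM in treat, below ctrl at days 1 and 3 (-1.19, adjusted p = 0.320, with 0% of genes called). In blood endothelium-like cells it was 304.1, 346.6 and 352.4 CPM, above ctrl on each day (0.37, adjusted p = 0.608), where no gene was called (0%).

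Neutrophil-like cells gave 0.109% of genes called and none of the 8 members tested. Il1b in these cells overlapped between ctrl and treat (-0.17, adjusted p = 0.949). Il1rap was 46.0, 40.9 and 56.8 CPM in ctrl and 33.0, 10.4 and 16.2 CPM in treat, without overlap (-1.44, adjusted p = 0.404), and the difference was -0.36 (adjusted p = 0.885) without the 2 libraries that stood apart, which held 88.9 and 77.8 CPM. Il1a was 69.0, 24.6 and 76.7 CPM in ctrl and 8.45, 47.8 and 20.4 CPM in treat (-1.50, adjusted p = 0.758), 0.40 without the 2 libraries that stood apart and -2.74 without day 3 of both groups, where it was called (adjusted p = 0.00214) among 44 of 7699 genes. With no count filter, Il1a (-1.56, adjusted p = 0.00118) and Il1rap (-1.50, adjusted p = 0.000575) were called, among 135 of 15373 genes. Cluster 33, a neutrophil-like cluster with 102.3 to 170.0 CPM of Il1a in ctrl, held 34.2%, 9.61% and 3.05% of the neutrophil-like cells in ctrl and at most 2.13% in treat. Its cells were not counted by library. Library 2 of ctrl day 1, which stood apart in Il1a, held many of the neutrophil-like cells of that sample, which had 3490 with it and 2228 without it. The ctrl day 1 share may therefore rest largely on 1 library.

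In macrophage-like cells (0% of genes called) Il18 differed by 0.06 (adjusted p = 0.972) and Il1b by 0.46 (0.833), and in cluster 21 (0% called) Il1rl1 differed by -0.24 (adjusted p = 0.910). Smooth muscle and mural-like cells had 0, 0 and 0 CPM of Il1rl1 in sham, 2.42, 47.1 and 46.7 CPM in ctrl and 1.42, 1.16 and 4.62 CPM in treat. The treat difference in these cells was -3.44 (SE 0.54, adjusted p = 0.107), and 0% of genes were called there. It was called in 4 of 10 alternative settings, over which adjusted p ran from 4.41e-18 to 0.744. Among the 4 were DESeq2 (-3.24, adjusted p = 0.000908), the fit without day 1 of both groups (-3.93, 0.0431) and that without day 3 of both groups (-2.85, 0.0120). In the 3 settings named here 75 of 9845, 6 of 10055 and 146 of 10119 genes were called. At ctrl day 7, library 2 held 85.0 CPM against 1.18 and 4.63 CPM in the other libraries of that sample.

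Genes that work with the 9 members were followed from lists. Over all genes, 3.57% were called in ctrl against sham, and 285 of 15181 were called higher. Of other IL-1 family genes, 1 of 8 tested rose in ctrl and none fell, with a median log2 difference of 0.42 against -0.01 over all genes. This was Il18rap, the accessory chain of the IL-18 receptor, at 0.733, 1.10 and 1.17 CPM in sham and 3.53, 14.3 and 6.91 CPM in ctrl (3.30, SE 0.57, edgeR adjusted p = 0.0437). Neutrophil-like cells held 53.7%, 52.2% and 17.5% of its ctrl UMIs, and without these cells it was not called (2.64, adjusted p = 0.0783). Of the genes for maturation and release of IL-1, such as Casp1, Nlrp3 and Pycard, none of 18 tested was called (8 at an unadjusted p under 0.05, median 0.75). Of the genes that signal below the receptors, such as Myd88 and Irak4, none of 21 was called (7 at an unadjusted p under 0.05, median 0.37). Over all genes, 29.0% had an unadjusted p under 0.05.

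Of 21 textbook targets of IL-1 tested, 1 rose and none fell in ctrl, a share near the 3.57% called over all genes. The median log2 difference of the targets was 0.36 against -0.01 over all genes, and 7 had an unadjusted p under 0.05. Cxcl2, a neutrophil-attracting chemokine, was 832.8, 887.8 and 592.2 CPM in sham and 2558, 3885 and 1709 CPM in ctrl (2.17, SE 0.34, edgeR adjusted p = 0.0418). Macrophage-like cells held 87.0% and 83.8% of its UMIs in sham 2 and sham 3, and neutrophil-like cells 68.3%, 63.1% and 31.2% in ctrl. Without neutrophil-like cells its difference was 1.12 (adjusted p = 0.0956). Like the members, Cxcl2 and Il18rap were not called without sham 2 (2.32 and 3.38), sham 3 (2.04 and 3.45), ctrl day 3 (1.86 and 2.70) or ctrl day 7 (2.41 and 3.40), nor without the 2 libraries that stood apart (1.67, adjusted p = 0.135, and 3.26, adjusted p = 0.0521). Over 17 alternative settings the call was lost in 8 for Cxcl2 and in 6 for Il18rap. In treat, Cxcl2 was 700.4, 1580 and 769.1 CPM, below ctrl on each day (-1.51, adjusted p = 0.907 by edgeR and 5.02e-05 by DESeq2), and the difference was -0.72 without the 2 libraries that stood apart. By edgeR, no gene of the 4 lists was called in treat against ctrl. The list medians were -0.14 over 7 other family genes, -0.25 over 18 genes of maturation and release, 0.06 over 21 of signalling and 0.25 over 22 targets, against 0.00 over all genes. An unadjusted p under 0.05 was found for 1, 1, 0 and 6 genes of these lists, in that order, against 4.50% of all genes. The targets moved in both directions, with 13 of the 22 above 0.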

How the data were processed

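The authors deposited whole-number UMI counts per gene and barcode for each library, without normalization and with empty barcodes included. The matrix headers name Cell Ranger version 4, the submitters' processing notes name Cell Ranger 5.0.1 and Seurat 3.2.0, and the genome build is not given in the sources used here, so no coordinates are printed. Features with the same symbol were merged by summing.

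Cells were required to have over 400 and below 6000 genes, mitochondrial UMIs below 25% and hemoglobin UMIs below 3%, which left 150284 of the 161086 barcodes with more than 400 genes. A nearest-neighbour score of simulated doublets was computed per library, which removed the 10989 cells ranking past percentile 92.5. With scanpy 1.11.5, 30 principal components were taken from 2000 variable genes after log-normalization, and Leiden clustering (resolution 0.9) gave 36 clusters, of which 29 were named "X-like" from marker lists and 7 stayed unnamed. The markers were listed beforehand, and the scoring of markers was set after the leading genes of clusters had been seen. A marker counted when over 10% of the cells of a cluster had it at over 2 times the level of the other cells, and at least 3 were needed.

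UMIs were summed per sample and cell type, and types with at least 20 cells in a sample were used. Groups came from the sample titles. Ctrl against sham (3 samples against 3) and treat against ctrl (3 against 3, with the day as a block) were tested with edgeR 4.0.16 (TMM, filterByExpr, quasi-likelihood F test) across all genes, with Benjamini-Hochberg adjustment over all genes tested and a threshold of 0.05. Both comparisons share the ctrl samples. Single values were compared by two-sided exact permutation tests, paired by sample for cell types and by day for treat against ctrl (scipy 1.17.1). The fits were tested on simulated data first. Alternatives were DESeq2 1.42.0, no TMM, no count filter, doublets kept, no hemoglobin limit, subtraction of the empty-barcode profile, each library as its own sample, both graft groups pooled, no day block and each sample left out. Free RNA was estimated from barcodes with 100 UMIs or fewer. Its share per library and cell type was the lowest ratio of observed to free UMIs over the marker lists of other types. This gives a low estimate.

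The 9 members, the gene lists and the marker lists were chosen with earlier results of these data known. Genes outside the 9 members were named when called in all cells (lists) or when among the 3 highest Pearson correlations with a member. Leading genes of clusters and examples of what a list holds (Casp1, Nlrp3, Pycard, Myd88, Irak4) are named without values, neutrophil markers (S100a8, S100a9, Cxcr2, Ngp) with levels beside Il1b, and Il18bp was named after its values were seen. UMIs are counted near the 3′ end, so levels of different genes are not compared. Total counts limit precision, with 10 Il1a UMIs and 27 Il1rl1 UMIs in sham 1 as the lowest. The largest overlap of barcodes between any pair of libraries from 1 sample was 0.33%.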

Additional observations from a re-analysis of the deposited data

Results flagged for a closer look

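Over all cells, Il1r1 was 1.38 higher on the log2 scale in treat than in ctrl at day 1, with -1.36 at day 3 and 0.12 at day 7. The signs at days 1 and 3 are opposite, with 1 sample per group and day, and the difference between days was not tested. In treat day 1, 75.2% of the Il1r1 UMIs were in fibroblast-like cells, which made up 26.3% of the cells there and 3.79% in ctrl day 1.

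Il1rl1 over all cells was 3.32 higher on the log2 scale in treat than in ctrl at day 1, with -1.999 at day 3 and -1.67 at day 7. This difference between days was not tested either. Fibroblast-like cells held 79.1% of the Il1rl1 UMIs of treat day 1, and within them Il1rl1 was 19.3 CPM in treat day 1 and 5.34 CPM in ctrl day 1.

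The post-LT difference of Il33 was larger in fibroblast-like than in blood endothelium-like cells by 2.32 on the log2 scale, by the test of the difference itself. The fibroblast-like cells of sham came to 52.2%, 48.0% and 67.7% from cluster 10, low in Il33, and most of those of ctrl from clusters 11 and 24, and the part of these clusters in this difference was not tested.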

How the results depend on the processing

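Of 51 tested log2 differences, 39 kept their sign under every alternative run for them. Both sign and side of the threshold were kept by 16, none of them called, so none of the 14 called differences kept its call under every alternative. The 9 ratios of the leading cell type to the next, which had no test and 2 to 4 alternatives each, kept their sign. The members called in ctrl against sham (4) ranged from 0 to 5 when 1 sample was left out and numbered 0 without neutrophil-like cells and 0 without library 2 of ctrl day 1 and of ctrl day 7. In treat against ctrl DESeq2 called 1 member. The number of all genes called in ctrl against sham (542) was 1223 without TMM, 3439 by DESeq2, 1361 with each library as its own sample, 2263 with the graft groups pooled, 1878 without sham 1, 1038 without ctrl day 1, 4 without ctrl day 7, and 0 without sham 2, sham 3, ctrl day 3, neutrophil-like cells or the 2 libraries that stood apart. In treat against ctrl it was 122 by DESeq2 and 0 otherwise.

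The other 12 tested differences changed sign at least once, and the cause was not tested. For treat against ctrl over all cells, without the 2 libraries that stood apart the value was 0.014 for Il1a, 0.27 for Il1r1 and 0.10 for Il1rl1, and without neutrophil-like cells 0.051 for Il1b and 0.084 for Il1r1. Il1r1 was 0.054 without TMM, 0.053 with no hemoglobin limit, 0.068 with each library as its own sample and 0.10 with no day block, and Il1rl1 0.48 with no day block. With 1 day left out, Il1r1 ranged from -0.65 to 0.61 and Il1rl1 from -1.86 to 0.69. In ctrl against sham, Il33 in blood endothelium-like cells was 0.059 with the graft groups pooled, 0.084 without the 2 libraries and -0.36 to 0.042 with 1 sample left out. Il1rn in macrophage-like cells was 0.18 with each library as its own sample and -0.74 to 0.084 with 1 left out, and Il1rl1 in cluster 21 was -0.00076 and -0.34 to 0.48. In treat against ctrl within neutrophil-like cells, Il1a was 0.40 without the 2 libraries, and Il1b was 0.16 and, with 1 day left out, -0.62 to 0.11. With 1 day left out, Il18 in macrophage-like cells ranged from -0.063 to 0.13, Il1r1 in blood endothelium-like cells from -0.066 to 0.53 and Il1rl1 in cluster 21 from -0.89 to 0.33, with 0.035 for each library as its own sample.

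For ctrl against sham, no paired analysis was possible because the labels give sham and transplanted samples no shared animal, litter or batch. Sham 2 and sham 3 had 6 and 8 neutrophil-like cells, so no test of ctrl against sham was made in these cells. The mixtures of clusters within a cell type and the share of neutrophil-like cells differ between the groups. The alternatives without neutrophil-like cells and without single libraries, and the fit over 2 cell types, were chosen after seeing the data.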

Other observations

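Across the 161 sums of sample and cell type with at least 20 cells, from 24 cell types and clusters, the genes whose log2(CPM + 1) followed each member most closely among 15005 genes were found by Pearson correlation. The sums share libraries, and these values are descriptions without a test. Il1b was followed by Lyz2 (0.92), Igsf6 (0.91) and Fcgr1a (0.91), Il1a by Lilrb2 (0.82), Igsf6 (0.82) and Il1rn (0.81), and Il1rn by Tlr2 (0.87), Il1b (0.85) and Ccl6 (0.85). Il1r2 was followed by Fetub (0.75), Elane (0.74) and Stfa2 (0.74). For Il33 they were Pls3 (0.80), Tmem47 (0.77) and Tspan6 (0.77), and for Il1r1 Rhoj (0.72), Osmr (0.72) and Cavin3 (0.71). Il1rl1 had Ccdc184 (0.76), Olah (0.72) and Tph1 (0.71), Il18 had Tbc1d8 (0.66), Atp6v0b (0.65) and Gpr160 (0.65), and Il1rap had Adam8 (0.55), Dgat2 (0.53) and Pkm (0.53).

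Il1r2 UMIs per 100 Il1b UMIs in neutrophil-like cells were 12.7, 9.86 and 8.35 in ctrl and 20.9, 3.42 and 9.70 in treat at days 1, 3 and 7, and without the 2 libraries that stood apart 11.6 in ctrl day 1 and 11.3 in ctrl day 7. Il18bp, the soluble inhibitor of IL-18, was 18.4, 16.7 and 14.1 CPM in sham, 19.7, 90.7 and 71.4 CPM in ctrl and 22.6, 182.2 and 79.5 CPM in treat, and did not pass the test in ctrl against sham (2.23, edgeR adjusted p = 0.0633). It was named after its values were seen.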
